A study of Mus musculus with 4 samples.

Results

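The genes described here encode 10 nuclear subunits or subunit isoforms of cytochrome c oxidase, complex IV of the respiratory chain. They were chosen by symbol, without use of any measured value, and comprise Cox4i1, Cox4i2, Cox5a, Cox5b, Cox6a1, Cox6a2, Cox7a1, Cox7a2, Cox8a and Cox8b. All 10 were found among the 16472 genes of the deposited table. RNA of skeletal muscle of wild-type (WT) mice was sequenced in 4 libraries, 2 of isolated mitochondria and 2 of the other fraction. That fraction carries the treatment label tissue minus mitochondria while its titles read SM-total, and it is called remaining tissue here, since it is not settled whether it was whole or depleted muscle. Both groups shared genotype and tissue, and no agent other than the fractionation was named. Age, sex, strain, the muscle dissected and whether the replicates were separate animals were not given in the labels, so that p-values measure only the spread between these libraries, which may be technical. The labels refer to an earlier protocol for the isolation, and the digestion of outside RNA described in the methods for heart mitochondria was not stated for muscle. Libraries were prepared from a small input of total RNA, and fragmentation time was adjusted for mitochondrial samples. An effect of fragmentation and an effect of the fraction therefore cannot be told apart.

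Cytochrome c oxidase takes electrons from cytochrome c, passes them to oxygen and pumps protons across the inner mitochondrial membrane. Its catalytic core is encoded by the mitochondrial genome (mt-Co1, mt-Co2 and mt-Co3), and the subunits around the core are encoded in the nucleus, translated on cytosolic ribosomes and imported. Several of the nuclear subunits exist in isoforms from separate genes. Cox6a2, Cox7a1 and Cox8b are the isoforms of heart and skeletal muscle, with Cox7a1 and Cox8b also known from brown fat, whereas Cox6a1, Cox7a2 and Cox8a are found in most tissues. Cox4i1 is the common form of subunit IV and Cox4i2 its alternative form, known from lung and from low oxygen. Cox5a and Cox5b are different subunits without an isoform pair here.

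To see whether sequencing reads could tell the isoforms apart, the most similar stretch of 75 bases (the length of a read) in the coding sequences of each pair was searched in transcripts of GENCODE M21 on GRCm38. The following stretches are shown because the isoform ratios below rest on these differences. Capitals mark bases at which the members of a pair differ, and all stretches run 5′ to 3′ on the strand of the gene.
Cox6a1: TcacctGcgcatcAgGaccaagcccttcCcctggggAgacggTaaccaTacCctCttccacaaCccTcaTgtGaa
Cox6a2: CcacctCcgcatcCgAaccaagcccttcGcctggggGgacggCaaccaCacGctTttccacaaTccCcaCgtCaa
Cox7a2: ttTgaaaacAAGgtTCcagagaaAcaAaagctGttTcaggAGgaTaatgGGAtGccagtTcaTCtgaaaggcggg
Cox7a1: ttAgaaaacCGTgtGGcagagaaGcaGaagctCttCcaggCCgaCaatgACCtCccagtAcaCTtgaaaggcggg
Cox8a: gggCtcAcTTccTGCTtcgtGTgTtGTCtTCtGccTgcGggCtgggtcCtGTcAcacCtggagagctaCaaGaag
Cox8b: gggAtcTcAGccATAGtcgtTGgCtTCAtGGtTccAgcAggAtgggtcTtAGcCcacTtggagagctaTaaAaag
Cox4i2: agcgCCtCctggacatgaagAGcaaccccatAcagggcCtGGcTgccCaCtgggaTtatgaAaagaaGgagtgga
Cox4i1: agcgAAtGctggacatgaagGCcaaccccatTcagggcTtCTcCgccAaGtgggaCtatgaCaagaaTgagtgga

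All stretches lie in coding exons. That of Cox6a1 joins exon 2 (chr5:115348565-115348586) and exon 3 (chr5:115345874-115345926) on the minus strand, and that of Cox6a2 joins exon 2 (chr7:128205900-128205921) and exon 3 (chr7:128205760-128205812), also on the minus strand. The stretch of Cox7a2 joins exon 2 (chr9:79758490-79758528) and exon 3 (chr9:79756326-79756361) on the minus strand, and that of Cox7a1 joins exon 2 (chr7:30185133-30185171) and exon 3 (chr7:30185275-30185310) on the plus strand. The others lie within a single exon, namely exon 2 of Cox8a (chr19:7215398-7215472, minus strand), exon 2 of Cox8b (chr7:140899003-140899077, minus strand), exon 4 of Cox4i2 (chr2:152764799-152764873, plus strand) and exon 5 of Cox4i1 (chr8:120674025-120674099, plus strand). In these stretches 14 of the 75 bases differed between Cox6a1 and Cox6a2, 20 between Cox7a2 and Cox7a1, 27 between Cox8a and Cox8b and 15 between Cox4i2 and Cox4i1. The longest run of identical bases between whole transcripts of a pair was 14 bases, in the Cox4 pair. No other stretch of this length in the coding sequences of a pair was more alike.

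Some members share sequence with genes outside the pairs, and the authors left out reads that align to several places. Of the 75-base windows of the principal transcript, 21.7% in Cox5a, 17.2% in Cox5b, 11.6% in Cox4i1 and 6.44% in Cox6a1 also occur in a transcript of another annotated gene. The shared part of Cox4i1 is its overlap with Emc8 on the opposite strand, and that of Cox5b belongs to Gm11273 (390 bases at 99.2% identity). Cox5a resembles the processed pseudogene Gm11633 (444 bases at 93.0%) and Cox6a1 resembles AC148174.2 (496 bases at 92.7%). Itgad overlaps Cox6a2 on the opposite strand, and Gm26631 overlaps Cox5a likewise. Counts of Cox5a, Cox5b and Cox6a1 are therefore uncertain through like sequence elsewhere. Those of Cox4i1, Cox5a and Cox6a2 are uncertain through exons on the opposite strand, since the strand setting of the counting was not given in the sources used here. Of these neighbours Emc8 was in the table, at 15 and 21 normalized counts in remaining tissue and 18 and 15 in isolated mitochondria. No window of Cox4i2, Cox6a2, Cox7a1, Cox7a2, Cox8a or Cox8b was shared with another annotated gene.

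Depth limited the comparison mainly in isolated mitochondria. The deposited values are normalized counts, that is gene counts divided by a size factor per library. Assigned reads numbered 42751199 and 35305953 in isolated mitochondria replicates 1 and 2, of which 95.3% and 94.1% fell on mitochondrially encoded genes, and an estimated 15703763 and 15301589 in remaining tissue. The 10 genes together held 146 and 273 reads in isolated mitochondria replicates 1 and 2, against an estimated 14946 and 14761 in remaining tissue. One read was worth 9.049 and 5.059 normalized counts in isolated mitochondria, and 1 normalized count stood for about 7.05 reads in remaining tissue. As a check of the label, skeletal myofibre markers such as Acta1, Ckm and Myh4 were detected in all 4 libraries (11 of 11).

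In remaining tissue the muscle isoforms were far more abundant than their ubiquitous partners. Levels of different genes were compared as normalized counts per kilobase of the principal transcript. Cox8b reached 836 ± 19.6 and Cox6a2 764 ± 19.8 normalized counts per kilobase (SD, n = 2), the highest levels of the 10 genes. Cox4i1 (516 ± 1.85) and Cox5b (512 ± 20.4) followed with overlapping replicates, as did Cox5a (339 ± 5.48) and Cox7a1 (331 ± 10.8). The ubiquitous isoforms Cox7a2 (105 ± 8.58), Cox8a (33.6 ± 6.43) and Cox6a1 (16.6 ± 1.24) came next without overlap, and Cox4i2 (4.77 ± 2.89) was lowest (SD, n = 2 each). The muscle isoform thus made up 98.0% and 97.7% of its pair per length for Cox6a2 in replicates 1 and 2, 96.6% and 95.7% for Cox8b, and 77.4% and 74.5% for Cox7a1. Subunit VIIa was the one with the largest ubiquitous share in this fraction.

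In isolated mitochondria the order of the levels was less distinct. Cox8b (456 ± 208), Cox4i1 (417 ± 37.0) and Cox5b (390 ± 54.8 normalized counts per kilobase, SD, n = 2 each) were highest. Of these, Cox8b overlapped Cox4i1 and Cox4i1 overlapped Cox5b, while Cox5b did not overlap Cox6a2, the next gene. Cox6a2 (268 ± 95.7) and Cox5a (233 ± 7.67) followed and overlapped each other. Cox8a (111 ± 64.3), Cox7a1 (101 ± 52.2), Cox7a2 (81.9 ± 57.9) and Cox6a1 (68.3 ± 29.7) formed a group in which neighbours overlapped. Cox4i2 was lowest at 0 and 13.6 in replicates 1 and 2.

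**Figure D1:**
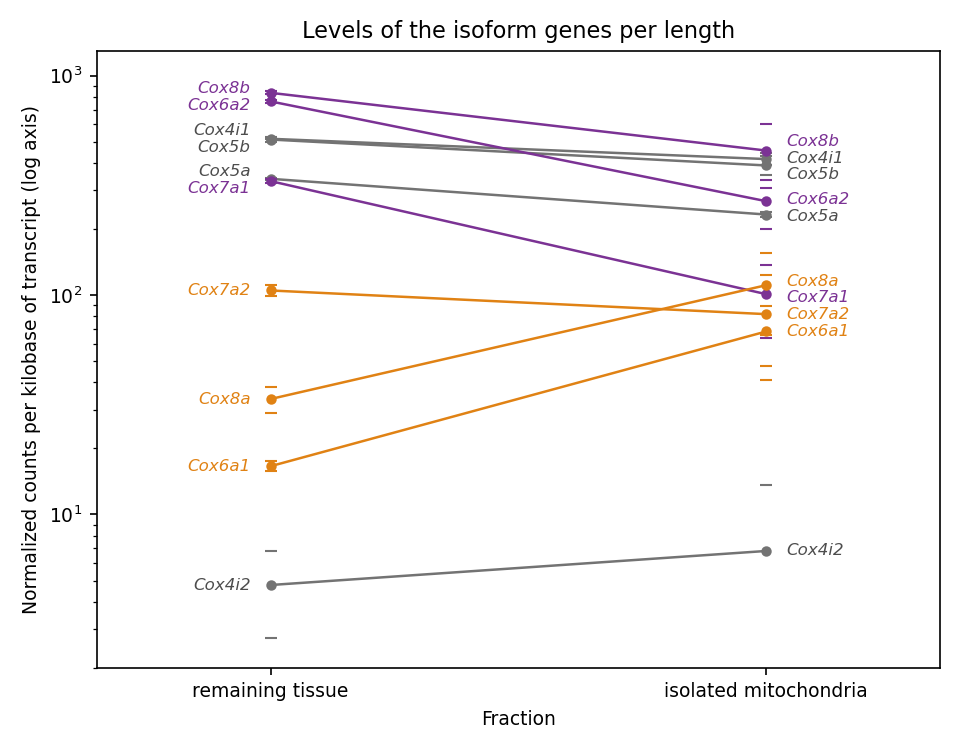
Levels of the 10 genes in remaining tissue (left) and isolated mitochondria (right) in normalized counts per kilobase of transcript on a log axis. Dots are means of 2 libraries and dashes the libraries, muscle isoforms are purple, ubiquitous isoforms orange and the others grey, and the library of isolated mitochondria with Cox4i2 at 0 cannot be drawn on this axis. Lines join the means of a gene. All purple genes lie above all orange ones in remaining tissue, whereas in isolated mitochondria Cox7a1 lies among the orange genes and Cox8b and Cox6a2 stay above them.

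The comparison of isoforms within a library does not depend on how libraries are scaled, and it gave the clearest difference between fractions for subunit VIa. Cox6a1, the ubiquitous form, had 9 and 10 normalized counts in the replicates of remaining tissue, and 27 and 51 in those of isolated mitochondria. Cox6a2, the muscle form, had 529 and 510 in remaining tissue and 136 and 228 in isolated mitochondria. Cox6a1 was higher in both libraries of isolated mitochondria and Cox6a2 lower in both. Cox6a1 therefore took 1.66% (95% Wilson interval 1.30 to 2.12) and 1.91% (1.51 to 2.41) of the reads of the pair in remaining tissue, against 16.7% (5.84 to 39.2, 3 of 18 reads) and 18.2% (10.2 to 30.3, 10 of 55 reads) in isolated mitochondria. The intervals, which cover counting error only, did not overlap between fractions. The log2 ratio of Cox6a1 to Cox6a2 averaged -5.77 ± 0.14 for remaining tissue, against -2.25 ± 0.12 for isolated mitochondria (SD, n = 2 each), a difference of 3.53 or 11.5-fold. An exact two-sided permutation test gave p = 0.333 (0.5 after Benjamini-Hochberg adjustment over the 3 pairs), the smallest p it can give with 2 libraries against 2.

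For subunit VIII the difference had the same direction and rested mostly on 1 library. Cox8a, the ubiquitous form, had 16 and 21 normalized counts in remaining tissue, and 36 and 86 in isolated mitochondria. Cox8b, the muscle form, had 296 and 306 in remaining tissue and 217 and 111 in isolated mitochondria. Neither gene overlapped between the groups. The share of Cox8a in the reads of the pair was 5.14% (4.29 to 6.14) and 6.42% (5.49 to 7.50) in remaining tissue. Among isolated mitochondria, replicate 1 had 14.3% (5.70 to 31.5, 4 of 28 reads), an interval that overlaps those of remaining tissue, and replicate 2 had 43.6% (29.3 to 59.0, 17 of 39 reads). The log2 ratio averaged -4.04 ± 0.24 for remaining tissue, against -1.48 ± 1.57 for isolated mitochondria (SD, n = 2 each), a difference of 2.56 or 5.89-fold, with p = 0.333 by the exact permutation test (0.5 adjusted). The difference was 1.45 without isolated mitochondria replicate 2 and 3.67 without replicate 1.

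For subunit VIIa the replicates of isolated mitochondria disagreed, and no difference could be shown. Cox7a2, the ubiquitous form, had 65 and 73 normalized counts in remaining tissue and 27 and 81 in isolated mitochondria replicates 1 and 2. Cox7a1, the muscle form, had 133 and 127 in remaining tissue and 54 and 25 in isolated mitochondria, without overlap. The share of Cox7a2 was 32.8% (30.4 to 35.3) and 36.5% (34.1 to 39.1) of the reads of the pair in remaining tissue, 33.3% in isolated mitochondria replicate 1 (12.1 to 64.6, 3 of 9 reads) and 76.2% in replicate 2 (54.9 to 89.4, 16 of 21 reads). Replicate 1 thus lay within the range of remaining tissue and replicate 2 far above it. The log2 ratio differed by 1.26 between fractions (exact permutation p = 0.667, also after adjustment), and by -0.08 without isolated mitochondria replicate 2.

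Summed over the 3 pairs, the ubiquitous isoforms held 8.58% (7.96 to 9.24) and 9.93% (9.27 to 10.6) of reads in remaining tissue. In isolated mitochondria they held 18.2% in replicate 1 (10.2 to 30.3, 10 of 55 reads) and 37.4% in replicate 2 (29.1 to 46.5, 43 of 115 reads). Both values exceeded those of remaining tissue, although the interval of replicate 1 overlapped that of remaining tissue replicate 2. The log2 ratio of the summed isoforms differed by 1.84 or 3.58-fold (exact permutation p = 0.333).

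For subunit IV, Cox4i1 remained almost the only form. Cox4i1 had 396 and 394 normalized counts in remaining tissue and 299 and 339 in isolated mitochondria, and Cox4i2 had 5 and 2, and 0 and 10. The share of Cox4i2 was 1.24% (0.892 to 1.72) and 0.501% (0.299 to 0.840) in remaining tissue. It was 0 of 33 reads in isolated mitochondria replicate 1, which allows a share of up to 9.09%, and 2 of 69 reads or 2.90% in replicate 2 (0.799 to 9.97). A difference in this pair was not detectable at this depth.

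**Figure D2:**
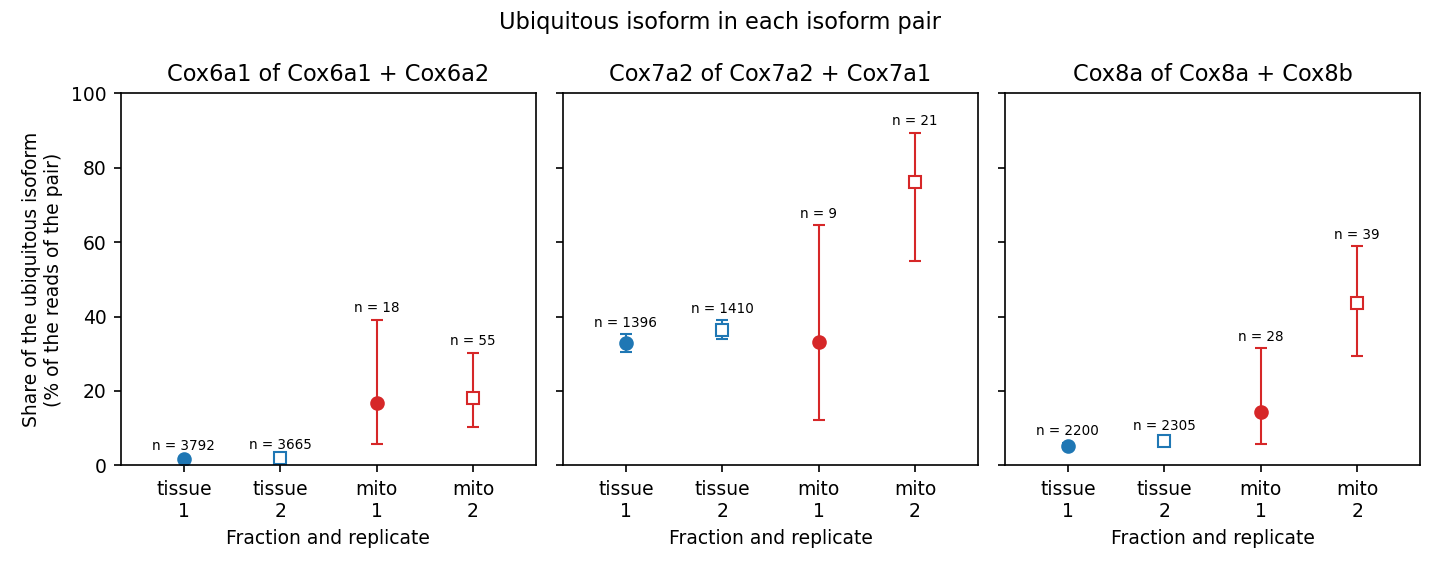
Share of the ubiquitous isoform in the reads of its pair (%, vertical axis) in each library, with 95% Wilson intervals and the number of reads of the pair (n). Cox6a1 lies under 2% in both libraries of remaining tissue (blue) and at 16.7% and 18.2% in isolated mitochondria (red), whereas the libraries of isolated mitochondria differ from each other for Cox7a2 and Cox8a.

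The level of each gene was then compared between fractions on log2(normalized count + 1) with limma over the 6916 genes whose mean reached 20 or more, which 9 of the 10 members passed (Cox4i2, at a mean of 4.25, did not). Cox6a1 and Cox8a passed only through their higher values in isolated mitochondria. The median log2 fold change of all genes tested was -0.44, against which changes are to be read. At an adjusted p under 0.05 (Benjamini-Hochberg), 1 member, Cox6a2, was lower and 0 were higher in isolated mitochondria, where 9.30% of all genes tested were called lower and 7.32% higher. At an unadjusted p under 0.05 there were 5 members of 9, against 37.0% of all genes tested, and 2 of these 5, Cox6a1 and Cox8a, were tested only because of their high values in isolated mitochondria. Cox6a2 stood at -1.55 (SE 0.31) with an adjusted p of 0.0454, and was lower in both libraries. It passed in 9 of 17 alternatives, with an adjusted p between 9.39e-06 and 0.215. The alternatives reuse the same libraries and are not independent. The 9 hold the fits without isolated mitochondria replicate 1 or 2, and the 8 below those without a remaining tissue replicate. In each of these fits 1 library stands for its group, and no call is taken from them. The 9 include pseudocounts of 0.5 and 5, and scaling to the sum of all genes, under which all 9 members tested and 6694 genes were called lower. The 8 that ended the call were no filter (adjusted p 0.0673), a minimum mean of 5 (0.0746), scaling to nuclear genes (0.215) or to the upper quartile (0.0521), quantile normalization (0.0784), eBayes without trend (0.0811), and leaving out remaining tissue replicate 1 (0.144) or replicate 2 (0.126).

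On the same log2 scale Cox7a1 stood at -1.79 (SE 0.44, adjusted p 0.0668, limma), Cox6a1 at 1.86 (SE 0.57, adjusted p 0.0997) and Cox8a at 1.55 (SE 0.54, adjusted p 0.125), none of which passed. Leaving out isolated mitochondria replicate 1 or 2 gave 2.31 and 1.42 for Cox6a1, -2.33 and -1.25 for Cox7a1, and 2.17 and 0.94 for Cox8a. Directions were kept, and no call is taken from these fits, in which 1 library stands for its group. With edgeR on recovered reads, 2 members passed as lower (Cox6a2 at -1.47, adjusted p 0.0190, and Cox7a1 at -1.85, adjusted p 0.0157) and 2 as higher (Cox6a1 at 2.13, adjusted p 0.0394, and Cox8a at 1.86, adjusted p 0.0377), where 17.6% of all genes were called lower and 13.6% higher. Because Cox6a1 and Cox8a entered the test through the group in which they are high, their calls as higher are a description and carry no weight as a test. Without a filter, limma gave them adjusted p-values of 0.0867 and 0.185. Cox8b stood at -0.95 (SE 0.38, adjusted p 0.158, limma) and Cox7a2 at -0.54 (SE 0.59, adjusted p 0.531). With a replicate block Cox7a1 also passed in limma (adjusted p 0.00695). The direction of Cox6a1 and Cox8a turned to -4.51 and -4.98 when each library was scaled by its sum over all genes, under which the median gene stood at -6.90.

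The members without a muscle form had smaller differences. Cox5a, which with Cox5b faces the matrix side of the complex, had 216 and 221 normalized counts in remaining tissue and 154 and 147 in isolated mitochondria. It stood at -0.54 on the log2 scale (SE 0.19, adjusted p 0.126, limma). With no filter, Cox5a passed as lower (adjusted p 0.0275, limma) and was the 1 member called. In that fit 3026 of all 16472 genes were called lower. Cox5a stood at -0.57 without isolated mitochondria replicate 1 and at -0.50 without replicate 2. Cox5b had 455 and 430 against 371 and 304 (-0.40, SE 0.20, adjusted p 0.223), and Cox4i1 stood at -0.31 (SE 0.18, adjusted p 0.278). These values lay close to the median of all genes of -0.44, and they were above 0 for all 3 genes when libraries were scaled by nuclear genes alone (0.36, 0.50 and 0.58, where the median was 0.43). Among the 9 members tested, libraries of the groups did not overlap for 6 that were lower and 2 that were higher in isolated mitochondria, where 43.7% and 25.5% of all genes were so separated. The 2 higher ones, Cox6a1 and Cox8a, entered the test through isolated mitochondria, so that their separation carries no weight as a test.

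**Figure D3:**
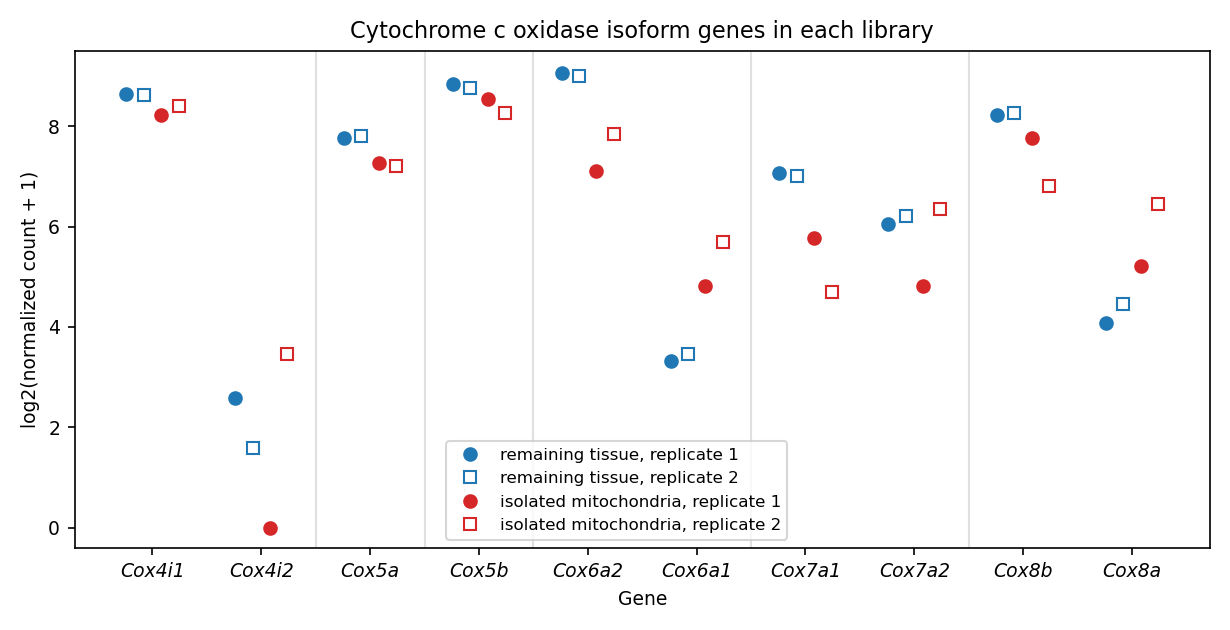
Value of each of the 10 genes in each of the 4 libraries, on the log2(normalized count + 1) scale (vertical axis), with vertical lines between subunits, circles for replicate 1 and squares for replicate 2. Cox6a2 and Cox7a1 are lower and Cox6a1 and Cox8a higher in both libraries of isolated mitochondria (red), while Cox7a2 and Cox4i2 overlap.

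The 10 genes were also summed as a share of all nuclear reads outside copies of mitochondrial genes. They took 1247 and 1233 reads per 1000000 nuclear reads (ppm) in remaining tissue and 1447 and 1507 in isolated mitochondria, which was 1.19-fold higher (exact permutation p = 0.333). Most genes rise on this scale, as the median log2 fold change of all genes tested was 0.43 when libraries were scaled by nuclear genes. Nuclear complex I subunits summed to a 1.39-fold higher share, and the 6 other nuclear structural subunits of complex IV to 1.26-fold. In ppm the muscle isoforms Cox6a2, Cox7a1 and Cox8b summed to 563 and 555 in remaining tissue and 446 and 397 in isolated mitochondria. The ubiquitous isoforms Cox6a1, Cox7a2 and Cox8a summed to 52.9 and 61.2, and 99.1 and 237. The muscle sum was lower and the ubiquitous sum higher in both libraries of isolated mitochondria.

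Calls among the other genes of complex IV are to be read against those among all genes tested. By limma 9.30% of these were lower and 7.32% higher, with 37.0% at an unadjusted p under 0.05. By edgeR 17.6% were lower and 13.6% higher. Of the 6 other nuclear structural subunits in the table, all tested, 0 were higher and 0 lower (limma, 2 at an unadjusted p under 0.05, and 1 lower by edgeR, Ndufa4). Their median log2 fold change was -0.870. Cox7a2l, a relative of the VIIa subunits that acts in respiratory supercomplexes, had 52 and 47 normalized counts in remaining tissue and 63 and 76 in isolated mitochondria (0.48, SE 0.26, adjusted p 0.258). Cox6b1 (-0.78), Cox6c (-0.33), Cox7b (-0.98), Cox7c (-1.22) and Ndufa4 (-0.96) had values below 0. Of the windows of Cox7c, 50.4% were shared with other genes, so that its counts are uncertain.

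**Figure D4:**
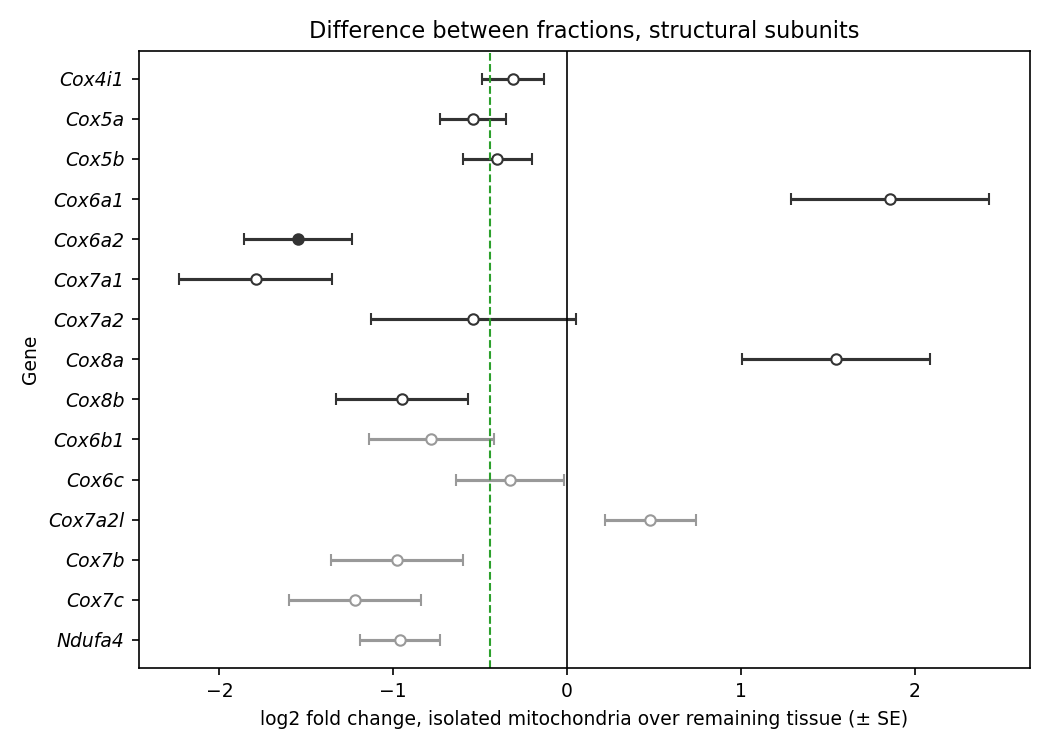
Log2 fold change of isolated mitochondria over remaining tissue (± SE, limma) for the 9 members tested (black) and the 6 other nuclear structural subunits (grey). The filled point, Cox6a2, passed an adjusted p of 0.05, the dashed green line is the median of all genes tested (-0.44), the black line marks 0, and Cox6a1, Cox8a and Cox7a2l lie above 0.

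Of the factors that assemble complex IV, 25 of 26 were in the table and 9 were tested, of which 0 were higher and 0 lower (limma, 3 at an unadjusted p under 0.05, and 1 lower by edgeR, Lrpprc, which stabilises mitochondrial mRNAs). Most had few reads, and 8 of the 25 were at 0 in at least 1 library of isolated mitochondria. Cycs, which encodes the cytochrome c that donates electrons to the complex, had 168 and 170 normalized counts in remaining tissue and 100 and 66 in isolated mitochondria (-1.05, SE 0.29, adjusted p 0.0836, limma), and it passed as lower by edgeR (-1.10, adjusted p 0.0338). Of the 36 nuclear complex I subunits listed for comparison, 0 were higher and 2 lower, Ndufb4 (-1.19, adjusted p 0.0422) and Ndufs1 (-0.95, adjusted p 0.0422, limma), with 9 at an unadjusted p under 0.05 and 5 lower by edgeR. Their median of -0.446 was close to that of all genes. Of all genes tested, 9.30% were called lower by limma, 17.6% were lower by edgeR and 37.0% had an unadjusted p under 0.05.

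In contrast, the mitochondrially encoded core subunits rose by 8.86 (mt-Co1, SE 0.42, adjusted p 0.00364), 8.89 (mt-Co2, SE 0.37, adjusted p 0.00317) and 8.92 (mt-Co3, SE 0.38, adjusted p 0.00317, limma). Reads of the 3 core genes exceeded those of the 16 nuclear structural genes 9.36-fold and 8.57-fold in remaining tissue replicates 1 and 2, and 7886-fold and 5187-fold in isolated mitochondria. This ratio is free of scaling, and the libraries of the fractions lay far apart.

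Because muscle and ubiquitous isoforms differ between cell types, markers of the cells that muscle contains were examined beside them. Skeletal myofibre markers were lower in isolated mitochondria for 10 of 11 genes tested (limma), and the list summed to 338209 and 327814 ppm of nuclear reads in remaining tissue and 86065 and 75622 in isolated mitochondria. Fibroblast markers (Col1a1, Col3a1, Dcn, Pdgfra and Lum) were higher for 5 of 5, with sums of 719 and 791, and 8779 and 16125. Macrophage markers were higher for 4 of 4 tested of 5, with sums of 57.0 and 70.0, and 644 and 789. Of all genes tested, 7.32% were called higher and 9.30% lower (limma). The 5 macrophage genes together had only 97 and 119 normalized counts in remaining tissue. Some may thus have entered the test through isolated mitochondria, and their calls carry no weight as a test. Both libraries of isolated mitochondria lay above remaining tissue for the fibroblast and macrophage sums. Replicate 2 was the higher one for these sums and for the ubiquitous isoforms, but also for cardiomyocyte, slow myofibre, endothelial, adipocyte and brown adipocyte markers. The order was reversed for skeletal myofibre, smooth muscle and red blood cell markers. The part of these cell types in the isoform ratios was not tested. In such bulk RNA, fewer cells of a type and less RNA per cell cannot be told apart.

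Log2 fold changes were also below 0 for 5 of 5 endothelial and 6 of 6 slow myofibre markers tested, as for 11 of 11 skeletal myofibre markers. The same held for the 3 smooth muscle and 2 red blood cell markers tested. The median of all genes tested, -0.44, was below 0 as well. Endothelial markers were lower for 1 of 5 tested (3 at an unadjusted p under 0.05, 3 lower by edgeR) and had sums of 268 and 270 against 99.1 and 155 ppm of nuclear reads. Slow myofibre markers (0 of 6 called, 2 at an unadjusted p under 0.05, 2 lower by edgeR) summed to 1452 and 2471 against 753 and 1722, which overlap. Sums also overlapped for smooth muscle (143 and 124 against 268 and 110), adipocyte (93.5 and 187 against 149 and 199) and red blood cell markers (97.6 and 104 against 119 and 44.2). In these last lists only 3 of 4, 2 of 5 and 2 of 5 markers were tested. Of those, 0 were called in limma or edgeR and 0 had an unadjusted p under 0.05, and so few tests cannot show a lack of difference. Brown adipocyte markers, of interest because Cox7a1 and Cox8b are also known from brown fat, were near 0 (2.92 and 1.75 against 0 and 11.0), with Cidea at 0 in both libraries of isolated mitochondria. Of the cardiomyocyte markers only Myh6 and Myl4 were in the table. Myl4 was at 0 in both libraries of isolated mitochondria, and the sum of 121 and 200 against 575 and 1684 came from Myh6, whose single test was called by edgeR and not by limma.

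**Figure D5:**
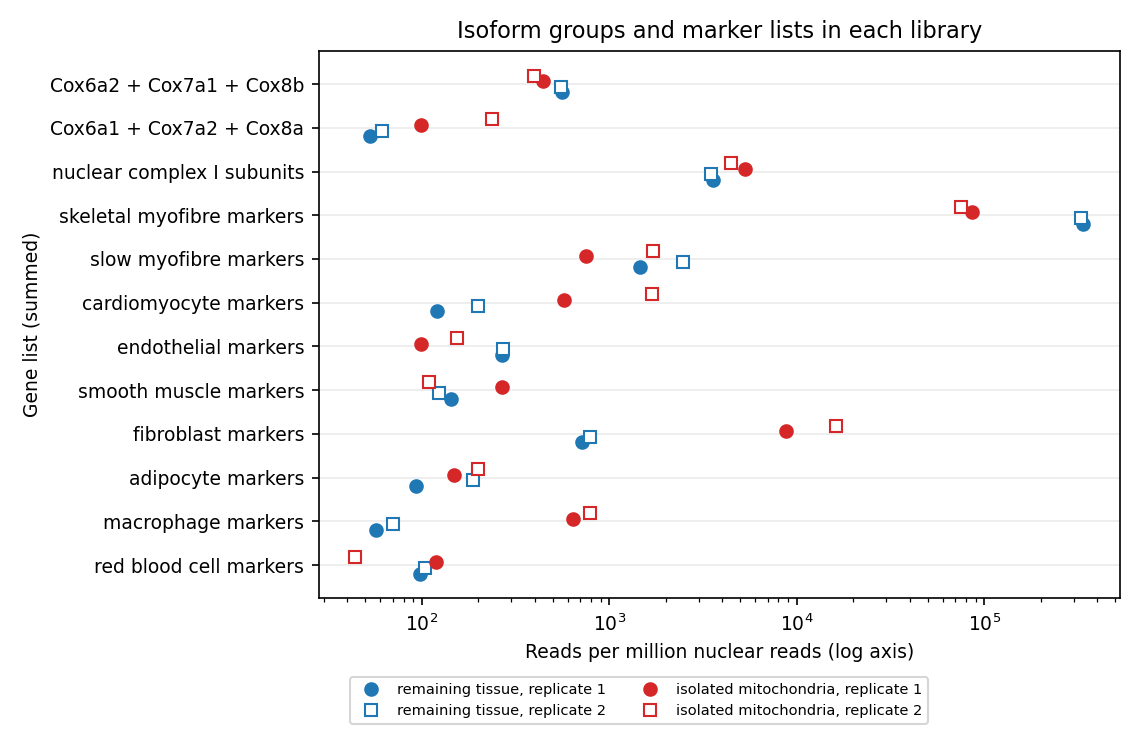
Summed ppm of nuclear reads (horizontal log axis) of the muscle isoforms, the ubiquitous isoforms, nuclear complex I subunits and the marker lists described above in each of the 4 libraries, with circles for replicate 1 and squares for replicate 2. Brown adipocyte markers, at 0 in 1 library, are left out. Fibroblast, macrophage and cardiomyocyte markers, nuclear complex I subunits and the ubiquitous isoforms lie higher in isolated mitochondria (red) than in remaining tissue (blue). Skeletal myofibre and endothelial markers and the muscle isoforms lie lower, and the other lists overlap.

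To find genes of similar pattern, tested nuclear genes outside copies of mitochondrial genes (6862 with the members, which were left out) were ranked. The ranking used the Euclidean distance of centred log2 values over the 4 libraries. Nearest to the mean of Cox6a2, Cox7a1 and Cox8b were Ttc7b (distance 0.0396), Birc6 (0.0418) and Gbe1 (0.0623). Ttc7b had 153 and 146 normalized counts in remaining tissue and 63 and 46 in isolated mitochondria. Nearest to the mean of Cox6a1, Cox7a2 and Cox8a were Lrrk1 (0.0443), Arhgdia (0.106) and Map1s (0.110). This mean joins unlike genes, since Cox6a1 (1.86) and Cox8a (1.55) lay above 0 and Cox7a2 (-0.54) below (limma). Lrrk1 had 19 and 23 normalized counts in remaining tissue and 27 and 66 in isolated mitochondria. With 4 libraries such likeness is a description only.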

How the data were processed

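RNA of isolated mitochondria and of remaining tissue of mouse skeletal muscle was measured in 2 libraries each, grouped by the treatment label and numbered by the titles. According to the submitters' processing notes, reads were trimmed with Trimmomatic 0.39, aligned with STAR 2.7.10a to mm10 (GRCm38), counted over exons with featureCounts 2.0.2 and scaled with DESeq2 1.30.1, although the methods name other versions of some tools. As deposited, each value is a signal, namely a gene count that the authors divided by a size factor and rounded.

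Whole reads were recovered for isolated mitochondria, where 99.97% of 10508 and 99.99% of 11660 values under 2000 were multiples of 1 read within 0.51 normalized counts. In remaining tissue reads were estimated from the medians of ratios over 8993 genes (1.01 to 1.03), so that rounding hides differences of up to 7.05 reads. Both libraries of this fraction were given the same size factor, an assumption that was not tested. Their read totals, their Wilson intervals and the fits on recovered reads rest on it. Nuclear copies were the 17 nuclear genes of which at least 50% matched mitochondrial transcripts (BLAST 2.17.0).

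limma 3.58.1 in R 4.3.3 was applied to log2(normalized count + 1) of genes with a mean of 20 or more (eBayes with trend, two-sided, no covariates, Benjamini-Hochberg over 6916 genes, threshold 0.05). Isoform ratios used normalized counts without pseudocount and an exact two-sided permutation test over libraries, and no ratio was formed for Cox4i2, which was at 0 in 1 library. Shares carry 95% Wilson intervals, and a count of 0 was given a limit of 3 reads. These describe counting error alone, because PCR copies could not be removed by molecular identifiers. Length was that of the principal (APPRIS) protein-coding transcript. Alternatives were other pseudocounts, filters, scalings, a replicate block, leaving out each library, edgeR 4.0.16 and DESeq2 1.42.0 on recovered reads, and other lengths. All members were named. Of the other lists, the core and structural subunits and up to 3 called genes in each direction were named, and others were named after their values were seen. The members and lists were chosen with earlier results of these data known. One marker list is not reported here.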

Additional observations from a re-analysis of the deposited data

How the results depend on the processing

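The ratio of Cox6a1 to Cox6a2 differed between fractions by 3.42 with a pseudocount of 1 and by 3.64 on reads plus 0.5, and by 3.43 to 3.63 when a library was left out. The other ratios depended on single libraries of isolated mitochondria, and without each library the difference was -0.08 to 2.61 for Cox7a2 to Cox7a1 and 1.45 to 3.67 for Cox8a to Cox8b. Per length, the mean share of Cox6a2 in its pair (97.9% in remaining tissue, 79.9% in isolated mitochondria) was 98.3% and 83.0% over the union of exons and 78.4% in isolated mitochondria over unshared windows.

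Of the members, 0 were called lower at a mean of at least 5, when scaled to nuclear genes without copies (1 was then higher, Cox6a1), under the upper quartile, quantile normalization and eBayes without trend. There were 9 lower under scaling by the sum of all genes and 2 lower with the replicate block. edgeR, edgeR with TMM and DESeq2 each gave 2 higher and 2 lower. The members called higher, Cox6a1 and Cox8a, entered the test through isolated mitochondria, and these calls carry no weight as a test. Leaving out a library gave 0 to 6 lower and 0 to 2 higher (0 lower without either library of remaining tissue, 5 and 6 lower without isolated mitochondria replicate 1 and 2), the lone library being assumed to vary like the other group. Of all genes, against 506 higher and 643 lower, there were 3026 lower without a filter, 283 higher and 399 lower at a mean of at least 5, 38 and 6694 when scaled to all genes, 1107 and 183 when scaled to nuclear genes, 417 lower after quantile normalization, 374 lower without trend and 1144 lower with the replicate block. edgeR gave 939 and 1216, with TMM 1106 higher, and DESeq2 1169 and 1326. Leaving out a library gave 296 to 1724 higher and 176 to 3198 lower. The sign turned for Cox4i1 (0.58 scaled to nuclear genes, 0.06 after quantile normalization), Cox5a (0.36), Cox5b (0.50) and Cox7a2 (0.33) scaled to nuclear genes, for Cox7a2 with edgeR and TMM (0.06) and without isolated mitochondria replicate 1 (0.23; -1.32 without replicate 2), and for Cox6a1 (-4.51) and Cox8a (-4.98) scaled to all genes. The cause was not tested.

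The replicate numbers are shared between groups, but nothing in the labels pairs them. Deviations of same-numbered libraries correlated at 0.141 across genes, and in this balanced design a replicate block cannot change the mean difference of an isoform ratio. With 3 to 67 reads for most members in isolated mitochondria, counting error limits every ratio.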
